A study of Mus musculus with 2 samples.

Results

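Mast cells that transcribe cytokine genes were examined in cultures of the early mouse embryo. Among 5158 single cells, 3992 carried at least 40 unique molecular identifiers (UMIs) of *Cpa3* and fewer than 20 of *Mcpt1* per 10000 UMIs of the cell. *Cpa3* encodes the mast cell granule enzyme carboxypeptidase A3, *Mcpt1* encodes a chymase of mucosal mast cells, and these 3992 cells are called *Cpa3*-high. Each received a score, the summed UMIs of *Il13*, *Lif*, *Osm* and *Nr4a2* per 10000. The 400 cells with the highest scores, the top 10% with both libraries ranked together, are the high-score cells described here, and the remaining 3592 *Cpa3*-high cells served for comparison. The score genes therefore differ by construction, and their levels are given as a description. Another gene thought to mark these cells, *Tnfrsf9*, played no role in the choice and was measured apart.

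The cells came from explants of C57/BL6 embryos at E8.5 (5 to 7 somite pairs), in which the embryo proper (Em-Ex) and the yolk sac (YS-Ex) were cultured separately. Both were kept at an air-liquid interface in medium with serum, SCF, IL-3 and FLT3 ligand, each at 100 ng/ml, for 9 to 10 days by the labels (10 days in the study's account of these cells), then dissociated with collagenase and sorted as CD31+CD45+c-Kit+CD41- cells. Cells of all explants of a kind were pooled and captured as 1 droplet library, so that each condition had 1 sample and neither embryos nor litters could be told apart. No stimulus of mast cells is named in the labels, and no uncultured sample was used here. With 1 library per condition no test was run, and the 95% intervals in parentheses (exact Poisson for counts, exact binomial for shares and for ratios of counts) cover counting error only.

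Mast cells are tissue-resident hematopoietic cells that store proteases, histamine and serotonin in granules. When the high-affinity IgE receptor or other activating receptors are engaged, they release the granules and, through calcium, NFAT, AP-1 and NF-kappaB, switch on genes of cytokines and chemokines. IL-13 acts with IL-4 in type 2 immunity, LIF and oncostatin M (*Osm*) are cytokines of the IL-6 family that signal through gp130, and *Nr4a2* is an immediate-early gene for an orphan nuclear receptor.

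The start regions of these genes are shown because the cells were chosen by their summed UMIs. They run from 250 bases before to 50 bases after the transcription start in RefSeq (GRCm38.p6, the assembly of mm10), 5′ to 3′ on the strand of the gene. Of 6 genes looked up, *Il13*, *Lif*, *Nr4a2*, *Gadd45b* and *Tnfrsf9* had an entry, and *Osm* had none. The 2 start regions of *Tnfrsf9*, whose level differed by no more than counting error, are not printed. They held 2 and 3 NFAT cores, and 1 of them an AP-1 motif. Capitals mark matches on either strand to the NFAT core GGAAA, the AP-1 motif TGANTCA, the CRE half-site TGACG and the TATA box TATAAA. The *Il13* region is chr11:53634653-53634952 (minus strand), that of *Lif* chr11:4257318-4257617 (plus strand) and that of *Nr4a2* chr2:57123954-57124253 (minus strand). *Gadd45b*, which was higher in the cells though it was no part of the score, starts in chr10:80929841-80930140 (plus strand).
Il13: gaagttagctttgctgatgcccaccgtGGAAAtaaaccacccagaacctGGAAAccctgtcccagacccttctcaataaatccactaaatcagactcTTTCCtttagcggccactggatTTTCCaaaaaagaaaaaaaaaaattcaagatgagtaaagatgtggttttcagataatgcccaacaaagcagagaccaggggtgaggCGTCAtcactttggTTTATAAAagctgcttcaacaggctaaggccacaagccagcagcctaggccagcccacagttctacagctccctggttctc
Lif: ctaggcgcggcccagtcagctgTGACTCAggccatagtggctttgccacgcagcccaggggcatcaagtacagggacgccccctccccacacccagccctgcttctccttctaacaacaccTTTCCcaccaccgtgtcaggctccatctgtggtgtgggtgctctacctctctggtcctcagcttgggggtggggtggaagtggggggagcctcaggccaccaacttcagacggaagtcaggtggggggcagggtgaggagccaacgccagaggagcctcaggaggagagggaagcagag
Nr4a2: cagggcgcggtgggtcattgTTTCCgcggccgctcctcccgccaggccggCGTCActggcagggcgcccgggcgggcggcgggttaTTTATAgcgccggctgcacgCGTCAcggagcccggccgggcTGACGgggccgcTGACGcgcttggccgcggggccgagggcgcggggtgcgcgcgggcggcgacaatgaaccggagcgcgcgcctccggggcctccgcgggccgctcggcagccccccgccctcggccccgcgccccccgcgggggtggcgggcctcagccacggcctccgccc
Gadd45b: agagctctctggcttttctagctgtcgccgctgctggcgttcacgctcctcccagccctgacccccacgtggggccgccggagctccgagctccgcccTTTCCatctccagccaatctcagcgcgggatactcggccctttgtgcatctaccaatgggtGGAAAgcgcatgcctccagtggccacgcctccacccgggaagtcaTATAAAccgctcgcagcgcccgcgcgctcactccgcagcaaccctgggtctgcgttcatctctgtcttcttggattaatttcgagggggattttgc
The *Il13* region held 4 NFAT core matches and 1 CRE half-site, with overlapping matches to the TATA box on both strands. In that of *Lif*, 1 NFAT core and 1 AP-1 motif were found. That of *Nr4a2* held 4 CRE half-sites, 1 NFAT core and 1 TATA box, and that of *Gadd45b* 2 NFAT cores and 1 TATA box. Such matches are frequent: among 32851 promoter regions of this length, 61.3% held the NFAT core, 20.8% the CRE half-site, 13.6% the TATA box and 7.81% the AP-1 motif. *Osm* (chr11:4236785-4241026) and *Lif* (chr11:4257568-4272514) are neighbors, 16541 bases apart, and *Il13* (chr11:53631323-53634702) lies 12657 bases from *Il4*.

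The high-score cells were sequenced to a median of 9676 UMIs and 2332 genes in Em-Ex and 13092 UMIs and 2962 genes in YS-Ex. The other *Cpa3*-high cells had medians of 11622 (Em-Ex) and 11645 UMIs (YS-Ex), so the high-score cells were the shallower group in Em-Ex and the deeper in YS-Ex. Mitochondrial UMIs made up 3.40% and 3.56% of the pooled UMIs of the high-score cells, against 3.04% and 3.48% in the others. The labels give a recovery of 3000 to 3500 cells per sample, the table held 3504 Em-Ex and 3037 YS-Ex barcodes, and 3071 and 2087 passed the limits on genes and mitochondrial UMIs. In all, 35 barcodes occurred in both libraries. Of the high-score cells, 3 from YS-Ex and 0 from Em-Ex had such a barcode, and without shared barcodes the shares of high-score cells were 6.98% and 13.3%. Doublets were not called and not removed. Some mast cell genes that neither the rule nor the sort used were more frequent in the high-score cells than in cells with under 10 *Cpa3* UMIs per 10000, each cell thinned to 3000 UMIs. *Hdc*, for histamine synthesis, was found in 91.7% against 10.8% in Em-Ex and in 96.1% against 28.0% in YS-Ex. For *Ms4a2*, of the IgE receptor, the shares were 15.9% against 0.355% and 16.5% against 2.00%. The chymase gene *Cma1* was found in 98.0% against 58.0% of YS-Ex cells, and its pooled level was 22396 against 367 UMIs per 1000000 in Em-Ex and 14418 against 946 in YS-Ex. These groups were set apart by *Cpa3*, so such gaps describe *Cpa3*-high cells and say nothing about the score. Beside the other *Cpa3*-high cells, *Hdc* was at 2460 against 2862 UMIs per 1000000 in Em-Ex and 2187 against 2058 in YS-Ex.

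High-score cells were found in both cultures and made up a larger share in YS-Ex. Em-Ex held 145 among 2077 *Cpa3*-high cells (6.98%, 5.92–8.16%), and YS-Ex held 255 among 1915 (13.3%, 11.8–14.9%). The median score over all *Cpa3*-high cells was 0.557 UMIs per 10000 in Em-Ex and 1.15 in YS-Ex. A score of 0 was recorded for 956 Em-Ex cells (46.0%) and 657 YS-Ex cells (34.3%). With every cell thinned to 3000 UMIs before scoring, the shares were 9.05% in Em-Ex and 16.0% in YS-Ex. The thinned score takes few values, and cells tied at the limit were all kept, so that these shares cover more than 10% of the cells and cannot be set beside the unthinned ones. The 2 libraries thus kept their order at equal depth, while a difference between single libraries and one between tissues cannot be told apart.

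**Figure D1:**
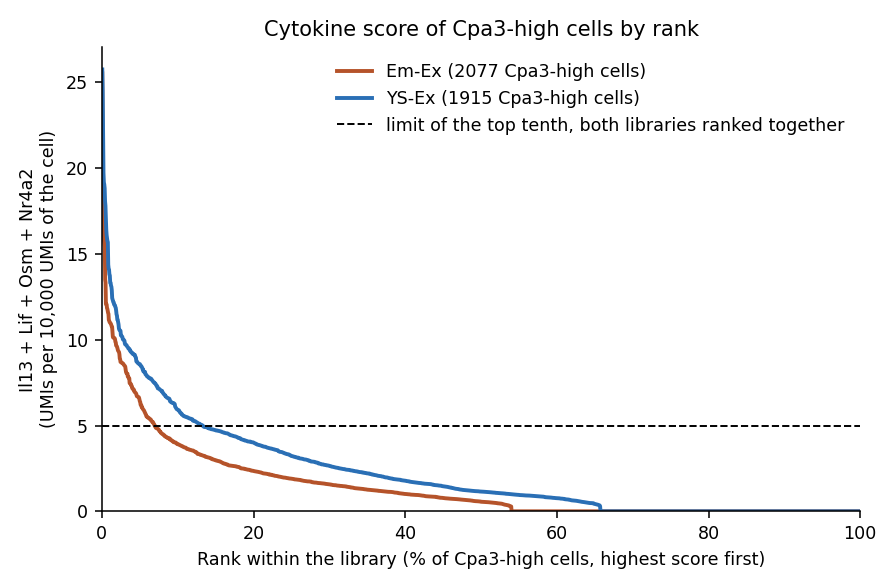
Summed UMIs of *Il13*, *Lif*, *Osm* and *Nr4a2* per 10000 UMIs for every *Cpa3*-high cell, ranked within its library; the x axis is the rank in percent and the dashed line the limit of the top 10%. The curves fall without a gap at the limit, and the YS-Ex curve lies above the Em-Ex curve.

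The score had no gap at the limit, so the high-score cells were cut from a continuous range of a count that rests on few molecules. The lowest score inside was 4.98 UMIs per 10000 and the highest outside 4.97. Within 1.2 times the limit lay 101 of the 400 cells (34 Em-Ex, 67 YS-Ex), and another 187 cells (58 Em-Ex, 129 YS-Ex) were between 0.8 times the limit and the limit. A high-score cell held a median of 8 UMIs of the 4 genes in Em-Ex (3 to 29) and 10 in YS-Ex (2 to 42), and the other *Cpa3*-high cells a median of 1 in each library.

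Within the high-score cells, no single gene accounted for the score. In Em-Ex, 34 cells had UMIs of 1 score gene, 65 of 2, 38 of 3 and 8 of all 4. In YS-Ex, where the cells were deeper, the numbers were 29, 69, 112 and 45. *Osm* was the leading gene in 48 Em-Ex cells, *Il13* in 44, *Nr4a2* in 24 and *Lif* in 15, with 14 ties. In YS-Ex, *Osm* led in 68 cells, *Il13* in 64, *Nr4a2* in 59 and *Lif* in 44, with 20 ties. All 4 genes thus led some cells of each library, and *Lif* led the fewest.

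Gene levels are given as CPM, the UMIs of a gene pooled over a group of cells per 1000000 pooled UMIs. *Il13* was at 263 CPM (238–291) in the high-score cells of Em-Ex against 32.1 CPM in the other *Cpa3*-high cells, and at 216 CPM (201–231) against 40.4 CPM in YS-Ex. *Lif* was at 114 CPM (97.8–133) against 12.4 CPM in Em-Ex and at 178 CPM (164–192) against 32.5 CPM in YS-Ex. *Osm* had the widest gap, 295 against 10.9 CPM in Em-Ex and 220.4 against 28.1 CPM in YS-Ex. *Nr4a2* was at 165 against 35.0 CPM in Em-Ex and 216 against 38.0 CPM in YS-Ex. These gaps follow from the choice of the cells. The high-score cells, 6.98% of the *Cpa3*-high cells of Em-Ex and 13.3% of those of YS-Ex, held 62.1% of the *Osm* UMIs of all Em-Ex *Cpa3*-high cells and 56.8% of those of YS-Ex.

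Each score gene was also left out in turn, the top 10% was taken by the other 3 genes, and the gene left out was read. The 4 genes had been put together with earlier results of these data known, so these values, and those of pairs of the genes, describe the choice and support nothing beyond it. Of the cells chosen in this way, 98 to 120 (Em-Ex) and 190 to 204 (YS-Ex) were high-score cells of the full score. The ratio of the gene left out was above 1 in all 8 cases. For *Lif* the ratio of pooled levels was 3.03 (2.35–3.88) in Em-Ex and 2.64 (2.34–2.97) in YS-Ex. That of *Il13* was 2.32 (1.93–2.77) and 2.09 (1.88–2.34), that of *Nr4a2* 2.26 (1.87–2.72) and 2.39 (2.14–2.67), and that of *Osm* 2.21 (1.73–2.78) and 1.97 (1.74–2.23). Depth moved with this in YS-Ex, where the chosen cells had medians of 12470.5 to 13281 UMIs against 11600 to 11765 in the rest, whereas in Em-Ex they were the shallower, at 9412.5 to 10376 against 11587 to 11636. The ratios are per UMI, and pairs of the genes were also read at equal depth.

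Pairs of score genes were read in all *Cpa3*-high cells, each thinned to 3000 UMIs. For 5 of the 6 pairs, in both libraries, a UMI of the second gene was found more often in cells with the first than in cells without, by 1.26 to 2.44 times. The counting intervals of the paired shares overlap in 5 of these 10 comparisons: *Il13* with *Osm* in both libraries, *Il13* with *Lif* and *Lif* with *Nr4a2* in Em-Ex, and *Lif* with *Osm* in YS-Ex. In Em-Ex, 11.7% (5.99–20.0%) of the 94 cells with a *Lif* UMI had one of *Osm*, against 4.79% (3.89–5.82%) of the cells without. In YS-Ex, 21.6% (16.8–27.0%) of the 264 cells with an *Il13* UMI had one of *Nr4a2*, against 11.5% (10.0–13.1%). *Nr4a2* was found in 6.60% of Em-Ex cells with an *Osm* UMI and 9.84% of those without, and in 12.6% and 12.9% in YS-Ex. For this pair, *Osm* with *Nr4a2*, no excess was detectable at this depth.

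*Tnfrsf9*, which encodes the costimulatory receptor 4-1BB, had ratios near 1 in the high-score cells as a whole. It was at 34.7 CPM (25.9–45.6) against 35.2 CPM (32.9–37.6) in Em-Ex, a ratio of 0.988 (0.732–1.31), and at 38.0 CPM (31.9–45.0) against 37.0 CPM (34.5–39.7) in YS-Ex, a ratio of 1.03 (0.850–1.23). The ratio depended on the ranking: its log2 value was 0.63 for the top 5% and −0.59 at 3000 UMIs per cell in YS-Ex, and −0.86 with *Osm* left out of the score in Em-Ex. *Osm* was also found more often beside it in Em-Ex, in 12.1% (6.63–19.9%) of cells with a *Tnfrsf9* UMI against 4.72% (3.83–5.75%) of cells without, at 3000 UMIs per cell. For the other 3 score genes in Em-Ex and all 4 in YS-Ex, these intervals overlap. Few cells carried the gene: a UMI was present in 17 of 145 cells from Em-Ex and in 31 of 255 from YS-Ex, and 3 cells in each library held 61.5% and 60.3% of the UMIs. At 3000 UMIs per cell, 6.90% of the high-score cells and 5.02% of the others had a UMI in Em-Ex, and 6.67% and 4.10% in YS-Ex. The share in cells with under 10 *Cpa3* UMIs per 10000, taken as the background, was 1.24% and 6.0%, with median depths of 19367 and 11423 UMIs before thinning. The YS-Ex background, from 50 cells, was close to the share in the high-score cells. Of the 5 genes that the name of an activated, cytokine-expressing mast cell rests on, 4 made the choice and the other differed by no more than counting error, so that the cells are called by their score.

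**Figure D2:**
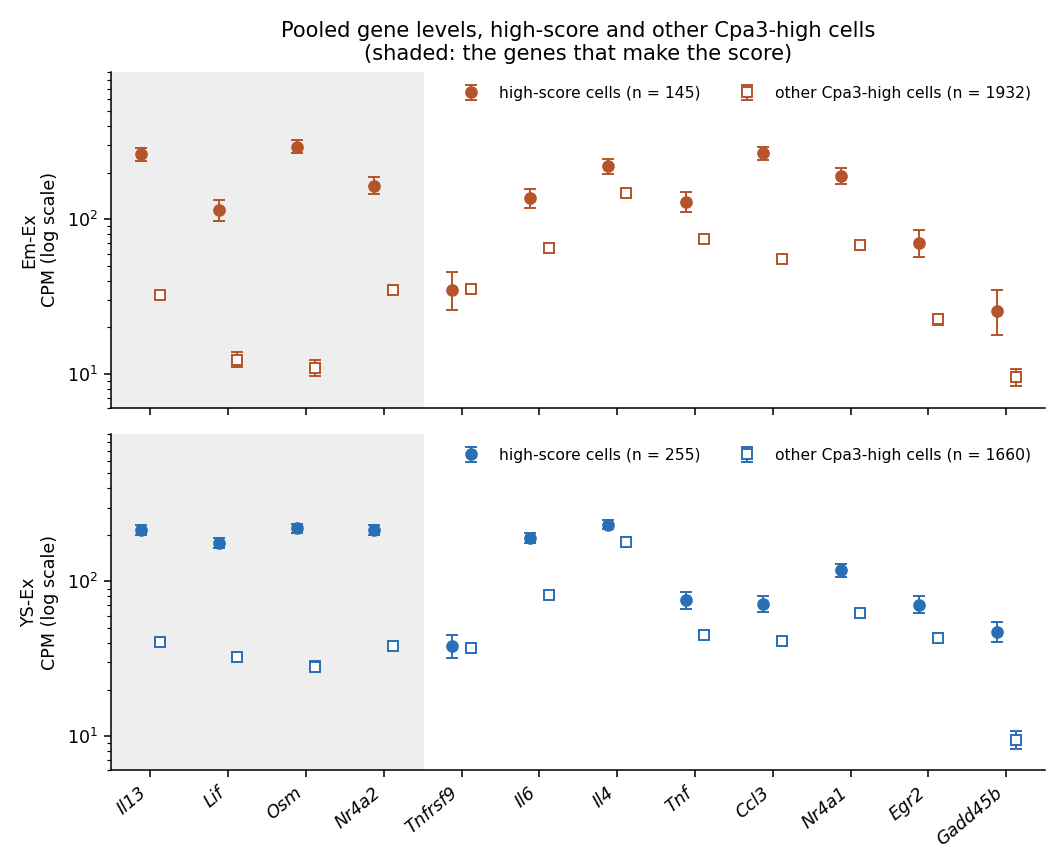
Pooled levels in CPM (log axis) with exact Poisson 95% intervals for 12 genes in high-score cells (filled) and other *Cpa3*-high cells (open), Em-Ex above and YS-Ex below, with the score genes shaded. *Tnfrsf9* overlaps between the groups in both libraries, while *Il6* and *Gadd45b* are apart in both.

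Across all genes, large differences were few, and more genes were counted as lower than as higher. Genes with at least 200 UMIs over the *Cpa3*-high cells of a library were compared, leaving out the genes of the rule, and a ratio of at least 2, or of at most 0.5, was counted. Of 6977 genes in Em-Ex, 52 (0.745%) were higher and 283 (4.06%) lower. Of 7307 genes in YS-Ex, 14 (0.192%) were higher and 67 (0.917%) lower. A gene at the 200-UMI limit is expected at 11.4 UMIs in the high-score pool of Em-Ex and 28.7 in that of YS-Ex, so that small counts alone can pass the 2-fold limit, more so in Em-Ex. Among cells with low cell cycle lists, a setting described with the division genes, the counts were 19 higher and 19 lower in Em-Ex, and 8 and 33 in YS-Ex. That setting keeps fewer cells and leaves fewer genes over 200 UMIs, so its counts cannot be set beside those of all *Cpa3*-high cells. The median log2 ratio was −0.08 in Em-Ex and −0.02 in YS-Ex.

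Of 6673 genes measured in both libraries, 3 (0.045%) were at least 2-fold higher in both and 19 (0.285%) at least 2-fold lower in both. The 3 higher genes were *Il6*, *Gadd45b* and *Hba-a1*. They made up 6.38% of the 47 genes higher in Em-Ex and 37.5% of the 8 higher in YS-Ex, and the 19 lower genes 8.37% of 227 and 30.6% of 62. Across the 6673 genes the log2 ratios correlated with an r of 0.377, a description only, since genes are not independent and both ratios share the choice of cells by a joint ranking.

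**Figure D3:**
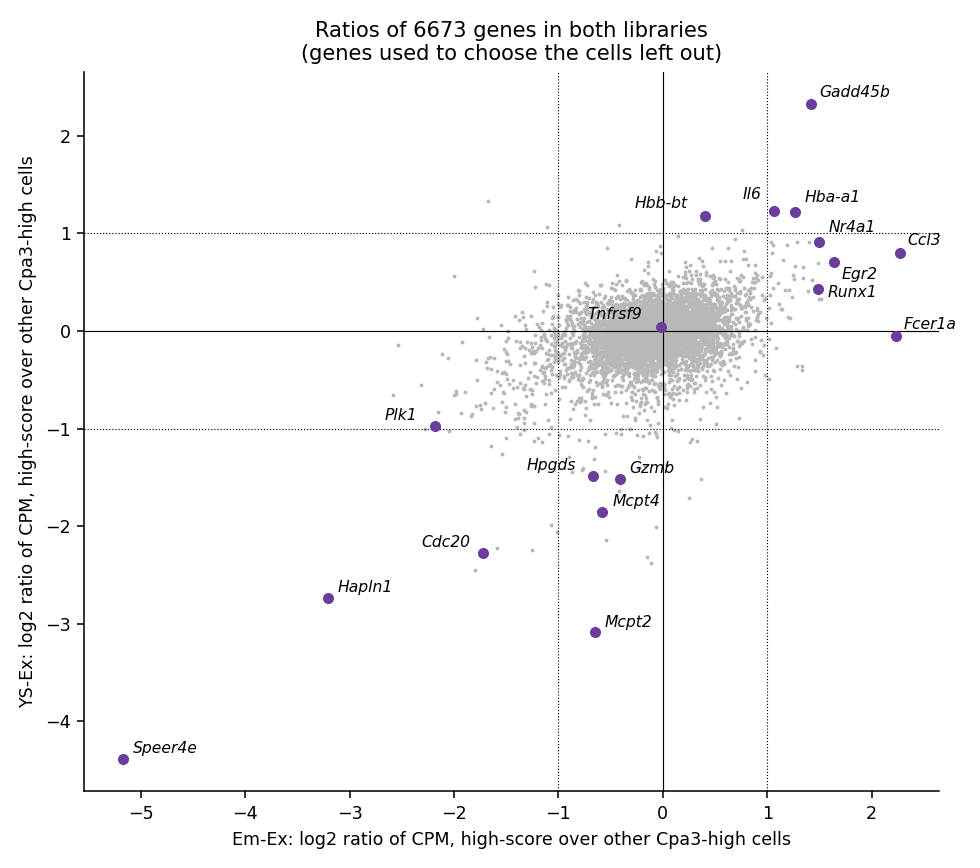
Log2 ratio of CPM, high-score over other *Cpa3*-high cells, in Em-Ex (x axis) and YS-Ex (y axis) for 6673 genes with at least 200 UMIs in each library; dotted lines mark 2-fold. *Il6*, *Gadd45b* and *Hba-a1* lie beyond 2-fold higher in both, and *Speer4e* lies lowest in both.

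Among cytokines outside the score, *Il6* stood out. Its product, IL-6, is the founding member of the family to which LIF and oncostatin M belong. *Il6* was at 136 CPM (118–156) in the high-score cells against 65.2 CPM (62.1–68.5) in the others in Em-Ex, a ratio of 2.09 (1.80–2.42), and at 191 CPM (177–206) against 81.4 CPM (77.7–85.4) in YS-Ex, a ratio of 2.35 (2.14–2.56). At 3000 UMIs, 29.7% of the high-score and 13.8% of the other cells of Em-Ex had an *Il6* UMI, and 32.2% and 16.1% in YS-Ex, against 1.60% and 4.0% in the *Cpa3*-poor cells. Without thinning, the shares were 43.4% and 30.5% in Em-Ex and 57.6% and 36.6% in YS-Ex. *Il6* was thus found in many *Cpa3*-high cells outside the high-score group, and its level was higher in the high-score cells of both libraries.

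*Il4*, the neighbor of *Il13*, differed less, with a ratio of 1.49 (1.33–1.67) in Em-Ex (220.5 against 148 CPM) and 1.28 (1.19–1.38) in YS-Ex (233 against 181 CPM). *Tnf*, the inflammatory cytokine that mast cells also store, was at 129.6 against 74.5 CPM in Em-Ex, a ratio of 1.74 (1.49–2.02), and at 75.5 against 45.2 CPM in YS-Ex, a ratio of 1.67 (1.45–1.91). *Csf2* (GM-CSF) had a ratio of 2.11 (1.46–2.96) in Em-Ex on 38 UMIs, 63.2% of them in 3 cells, and 1.53 (1.0–2.27) in YS-Ex. *Tgfb1* was at 0.853 and 1.14. Over the 23 other cytokine and growth factor genes of the list, 13 were in the table, and of the 7 measured in each library 2 were higher and 1 lower by 2-fold. Of all genes measured, 0.745% (Em-Ex) and 0.192% (YS-Ex) were higher, and 4.06% and 0.917% lower. Those higher were *Il6* with *Csf2* in Em-Ex and *Il6* with *Vegfa* in YS-Ex, and the lower one was *Calca*, at a log2 ratio of −1.80 and −2.45. Their medians were 0.75 and 0.36 log2, above the medians of all genes. *Il1b* and *Tnfsf11* had 0 UMIs in the high-score cells.

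Of the chemokine genes, 4 of 9 measured in Em-Ex and 0 of 4 measured in YS-Ex were higher by 2-fold in the high-score cells, against 0.745% and 0.192% of all genes measured. The difference between the libraries was not tested. *Ccl3* (MIP-1 alpha) was at 267 CPM (242–295) against 55.4 CPM (52.5–58.4) in Em-Ex, a ratio of 4.82 (4.30–5.40), and at 71.6 against 41.1 CPM in YS-Ex, a ratio of 1.74 (1.51–2.00). It was found in 45 of 145 and 49 of 255 high-score cells. Its share of cells at 3000 UMIs, 22.1% in Em-Ex and 12.2% in YS-Ex, stood against 9.57% and 16.0% in *Cpa3*-poor cells, so that the YS-Ex share was no higher than there. *Ccl2* (MCP-1) had ratios of 5.79 (4.77–6.98) and 0.459 (0.240–0.807) in Em-Ex and YS-Ex, with 66.0% of its 150 Em-Ex UMIs in 3 cells. *Ccl4* and *Ccl7* had ratios of 2.44 (1.64–3.52) and 2.98 (2.10–4.13) in Em-Ex. Each of the latter was seen in 10 cells, and the direction of both changed under other settings, to a log2 ratio of −1.66 for *Ccl7* with *Il13* left out of the score and of −0.37 for *Ccl4* at 3000 UMIs per cell. *Ccl4* in YS-Ex, below the 200-UMI limit, had 34 UMIs in 2 high-score cells. None of these 9 and 4 genes was lower by 2-fold (*Ccl2* and *Ccl5*, at 0.201 (0.0407–0.608), were below the 200-UMI limit in YS-Ex), the median was 0.70 log2 in Em-Ex, and the summed level there was 2.72 (2.52–2.92) times that of the other cells, against 1.22 (1.11–1.34) in YS-Ex.

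Of the surface genes of activation and TNF family genes, 8 were measured in Em-Ex and 7 in YS-Ex, and 0 passed 2-fold. With 0.745% and 0.192% of all genes measured higher, and 4.06% and 0.917% lower, counts of 0 in lists this short are near the background. *Cd69*, an early activation antigen, had ratios of 1.54 (1.43–1.66) and 1.24 (1.19–1.29). *Il2ra*, the alpha chain of the IL-2 receptor, was below the 200-UMI limit, with 12 and 29 UMIs and ratios of 11.7 (5.09–25.9) and 2.16 (1.36–3.35). Its YS-Ex direction changed among cells with low cell cycle lists, to a log2 ratio of −0.26. Of 8 measured receptor genes for the score cytokines and the culture factors, 0 passed 2-fold in either library, which is likewise near the background. *Il6st* (gp130), the receptor subunit that LIF and OSM share, was below the 200-UMI limit, with 3 and 19 UMIs in the high-score cells and ratios of 3.31 (0.614–11.7) and 2.36 (1.31–4.10). *Kit*, the receptor for SCF, was at 371 against 339 CPM in Em-Ex and 803 against 1022 CPM in YS-Ex, and *Il1rl1*, the IL-33 receptor, at 607 against 459 and 976 against 933 CPM. The genes *Il13ra1*, *Lifr* and *Osmr* were not in the table.

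Of the other *Nr4a* genes, *Nr4a1* passed 2-fold in Em-Ex and not in YS-Ex, and *Nr4a3* was below the 200-UMI limit in both. *Nr4a1* was at 191 CPM (169.6–215) against 67.8 CPM (64.6–71.2) in Em-Ex, a ratio of 2.82 (2.48–3.19), and at 119 CPM (108–130.4) against 62.9 CPM (59.6–66.3) in YS-Ex, a ratio of 1.89 (1.69–2.10). *Nr4a3*, with 6 and 23 UMIs, had ratios of 5.23 (1.71–13.6) and 4.91 (2.70–8.83). *Egr2* had ratios of 3.11 (2.50–3.84) and 1.64 (1.42–1.88), *Egr1* of 1.66 (1.54–1.78) and 1.26 (1.20–1.31), and *Btg2*, an antiproliferative immediate-early gene, of 2.43 (1.91–3.06) and 1.88 (1.68–2.09). *Fos* was at 1263 against 1144 CPM in Em-Ex and 1499 against 1783 CPM in YS-Ex, and the ratio of *Jun* was 1.20 (1.14–1.27) and 0.707 (0.679–0.736). Both encode subunits of AP-1. Of the other subunit genes, *Junb* had ratios of 1.76 (1.69–1.82) and 1.06 (1.02–1.09), *Fosl2* of 1.71 (1.25–2.29) and 1.76 (1.49–2.08), *Fosb* of 1.20 (1.09–1.32) and 0.891 (0.853–0.930), and *Jund* of 1.11 (1.01–1.21) and 0.861 (0.817–0.907). Of 21 genes of this list measured in Em-Ex 3 were higher by 2-fold, of 20 in YS-Ex 0, and none was lower in either library, while 0.745% and 0.192% of all genes measured were higher. The medians were 0.31 and 0.06 log2.

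Genes of NF-kappaB, NFAT and their targets differed little, with medians of 0.14 and 0.09 log2. *Nfkbid*, which encodes an atypical inhibitor protein of NF-kappaB, had the largest ratio of those measured in Em-Ex, at 98.9 against 48.1 CPM in Em-Ex, a ratio of 2.06 (1.72–2.44), and 74.9 against 39.7 CPM in YS-Ex, a ratio of 1.89 (1.64–2.17). *Nfkbiz* had ratios of 1.72 (1.46–2.01) and 1.29 (1.15–1.44), and *Nfkbia*, the classical inhibitor, of 1.36 (1.23–1.51) and 1.12 (1.01–1.24). The subunit genes *Nfkb1* and *Rel* and the NFAT gene *Nfatc1* had ratios between 0.997 and 1.24 in both libraries. Of 17 genes measured in Em-Ex and 16 in YS-Ex, 1 and 0 were higher by 2-fold, with 0.745% and 0.192% over all genes measured.

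Of the 19 feedback regulators of signaling measured in each library, *Pim2* alone passed 2-fold, in Em-Ex, with a ratio of 2.83 (1.89–4.11) against 1.25 (0.930–1.67) in YS-Ex. This is 1 of 19 and 0 of 19, where 0.745% and 0.192% of all genes measured were higher. Below the 200-UMI limit, *Dusp4*, a phosphatase of MAP kinases, had ratios of 1.20 (0.609–2.16) and 0.306 (0.1299–0.6185), and *Socs3*, an inhibitor of cytokine signaling, of 1.03 (0.327–2.52) and 0.409 (0.129–0.999). *Pim1*, a survival kinase induced by cytokines through STAT5, had ratios of 1.83 (1.70–1.96) and 1.42 (1.35–1.48). *Cish* and *Socs1*, inhibitors of cytokine receptor signaling, had ratios of 1.66 (1.49–1.85) and 1.42 (1.32–1.52) and of 1.80 (1.64–1.98) and 1.18 (1.11–1.26). *Dusp6*, a phosphatase of ERK, was at 0.847 (0.706–1.01) and 0.699 (0.615–0.791). The medians over 19 genes each were 0.31 and 0.11 log2.

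Genes of the IgE receptor and its signaling chain differed little, with medians of 0.12 and −0.04 log2. *Fcer1g*, the gamma chain, was at 3204 against 2928 CPM in Em-Ex and 2717 against 2701 CPM in YS-Ex, and *Ms4a2*, the beta chain, had ratios of 1.32 (1.07–1.61) and 1.12 (0.976–1.27). *Fcer1a*, the alpha chain that binds IgE, was the only one of the 20 genes measured in each library beyond 2-fold, and it was so in Em-Ex alone, where 0.745% of all genes measured were higher. It was at 59.5 CPM (47.7–73.2) against 12.7 CPM (11.3–14.2) there, a ratio of 4.69 (3.66–5.95), and at 18.5 against 19.2 CPM in YS-Ex, a ratio of 0.961 (0.730–1.25). In each library 18 high-score cells had a UMI of it, and 3 of these held 52.8% of the UMIs in Em-Ex and 59.1% in YS-Ex.

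Granule proteases were split by gene and by library. *Cma1*, the chymase of connective tissue mast cells and the most abundant of them, was at 22396 against 17059.9 CPM in Em-Ex and 14418 against 15316 CPM in YS-Ex. The tryptase gene *Tpsb2* had ratios of 1.27 and 0.922. *Srgn*, the core protein of the granule proteoglycan, had ratios of 1.14 and 1.10. Several others were lower, more so in YS-Ex. *Mcpt4* was at 254 CPM (237–271) against 916 CPM (903–929) in YS-Ex, a ratio of 0.277 (0.259–0.296), and at 652 against 974 CPM in Em-Ex, a ratio of 0.670 (0.627–0.714). *Mcpt2*, a chymase of mucosal mast cells, had ratios of 0.118 (0.0937–0.146) in YS-Ex and 0.638 (0.567–0.716) in Em-Ex. *Tpsab1* was at 0.401 (0.341–0.470) and 0.634 (0.559–0.716), and *Gzmb* (granzyme B) at 0.350 (0.298–0.409) and 0.752 (0.659–0.855), in the same order. Of 12 genes measured in each library, 5 were lower by 2-fold in YS-Ex (the 4 above and *Cma2*) and 0 in Em-Ex, where 0.917% and 4.06% of all genes measured were, and none was higher. *Mcpt2* belongs with *Mcpt1*, which the rule caps, to a family of similar chymase genes, and how reads shared among them were counted is not known. The lower proteases were held by few high-score cells: 32 YS-Ex cells had *Mcpt2* and 80 had *Mcpt4*, and 3 cells carried 49.4% and 32.6% of their UMIs. In Em-Ex, the 36 cells at 2 times the limit or more held 184 *Mcpt2* UMIs (502 CPM, 432–580). The other 109 high-score cells held 121 (107 CPM, 88.8–128).

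Of 11 genes for amine and lipid mediators, 3 were lower by 2-fold in YS-Ex and 0 in Em-Ex, beside 0.917% and 4.06% of all genes measured. *Hpgds*, which makes prostaglandin D2, was at 37.2 CPM (31.1–44.1) against 104 CPM (99.8–108) in YS-Ex, a ratio of 0.357 (0.298–0.426), and at 0.629 (0.514–0.762) in Em-Ex. The others beyond 2-fold were *Ddc* and *Alox5ap*, at log2 ratios of −1.06 and −1.05 in YS-Ex and −0.25 and −0.06 in Em-Ex. *Hdc*, which makes histamine, and *Tph1*, which makes the serotonin precursor, had ratios of 0.859 and 1.33 in Em-Ex and 1.06 and 1.18 in YS-Ex. *Ptgs2* (COX-2) was rare, with 23 and 33 UMIs, and had ratios of 5.68 (3.37–9.24) and 1.81 (1.19–2.69).

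Of the transcription factors of the mast cell lineage, 1 of 12 measured in Em-Ex, *Runx1*, was higher by 2-fold and 0 of 13 in YS-Ex, against 0.745% and 0.192% of all genes measured. It was at 136 CPM (118–156) against 48.5 CPM (45.8–51.4) there, a ratio of 2.79 (2.40–3.25), and at 235 CPM (219–251) against 174 CPM (168–179.7) in YS-Ex, a ratio of 1.35 (1.25–1.45). *Gata2* had ratios of 1.22 (1.14–1.30) and 1.14 (1.10–1.19), and *Mitf* of 0.771 (0.565–1.03) and 0.894 (0.760–1.05). The list of 12 measured genes in Em-Ex and 13 in YS-Ex had medians of 0.24 and 0.10 log2.

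*Gadd45b*, a gene induced by NF-kappaB and by stress, had the largest ratio of a measured gene in YS-Ex outside the score. It was at 47.3 CPM (40.4–54.9) against 9.46 CPM (8.20–10.9) in YS-Ex, a ratio of 5.00 (4.05–6.16), and at 25.4 CPM (18.0–34.8) against 9.49 CPM (8.31–10.8) in Em-Ex, a ratio of 2.68 (1.85–3.78). UMIs were present in 66 of 255 and 28 of 145 high-score cells. At 3000 UMIs the shares were 9.02% against 2.41% in YS-Ex and 6.21% against 3.31% in Em-Ex, with 2.00% and 3.19% in *Cpa3*-poor cells. The list of heat shock and dissociation stress genes, to which it belongs, had a median log2 ratio of −0.16 in Em-Ex and −0.02 in YS-Ex over 15 genes. Its summed ratio was 0.828 (0.809–0.847) and 1.01 (0.989–1.02). The part of stress in the level of *Gadd45b* was not tested. Of 17 and 18 genes of hypoxia and glycolysis, 0 passed 2-fold in either library, a count near the background of 0.745% and 0.192% higher and 4.06% and 0.917% lower, with summed ratios of 0.813 (0.795–0.833) and 1.08 (1.06–1.10).

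Most G2/M genes were lower by 2-fold in the high-score cells of Em-Ex, and a minority in YS-Ex. Of 19 genes of the G2/M list measured in Em-Ex 18 were lower by 2-fold, and of 20 in YS-Ex 7 were, where 4.06% and 0.917% of all genes measured were lower, with medians of −1.50 and −0.89 log2. *Cdc20*, an activator of the anaphase-promoting complex, had log2 ratios of −1.72 and −2.28, *Ccnb1* (cyclin B1) of −2.05 and −1.02, and *Mki67* of −1.39 and −0.84. The summed level of the list was 361 against 1010.3 CPM in Em-Ex, a ratio of 0.358 (0.328–0.390), and 471 against 849.5 CPM in YS-Ex, a ratio of 0.555 (0.527–0.583). Of 19 S phase genes in each library, 9 (Em-Ex) and 1 (YS-Ex) were lower, with summed ratios of 0.598 (0.558–0.640) and 0.767 (0.732–0.804). The median cell held 0 G2/M UMIs per 10000 among the high-score and 1.16 among the other cells of Em-Ex, and 0.607 and 0.672 in YS-Ex. In YS-Ex the medians over cells were thus close, while the pooled levels differed. The summed G2/M ratio depended on how the cells were ranked: its log2 value was −1.48 in Em-Ex and −0.85 in YS-Ex, but −0.77 for the top 5% in Em-Ex and −0.21 with *Il13* left out of the score in YS-Ex.

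Because division genes moved with the score, the cells were also ranked again among *Cpa3*-high cells whose S and G2/M genes were at or below their median, a setting chosen after seeing the data. There 19 genes were higher and 19 lower in Em-Ex, and 8 higher and 33 lower in YS-Ex. *Il6* then had log2 ratios of 0.87 and 1.25, *Gadd45b* of 1.27 and 2.26, *Nr4a1* of 1.22 and 0.94, and *Mcpt4* of −0.56 and −1.23. *Il6* was thus under 2-fold in Em-Ex there, and the ratios of *Nr4a1* in Em-Ex and *Mcpt4* in YS-Ex were nearer to 1 than in the full ranking.

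Among markers of other cell types, the summed level of the erythroid list was above that of the other cells in both libraries, and those of the mucosal mast cell and macrophage lists were below it. *Hba-a1*, an adult alpha globin gene, was at 51.4 CPM (40.6–64.3) against 21.4 CPM (19.6–23.3) in Em-Ex, a ratio of 2.40 (1.87–3.06), and at 112 CPM (102–124) against 48.1 CPM (45.2–51.2) in YS-Ex, a ratio of 2.34 (2.08–2.62). *Hbb-bt*, an adult beta globin gene, had ratios of 1.32 (1.07–1.61) and 2.27 (2.11–2.44). At 3000 UMIs, *Hba-a1* was found in 6.21% of the high-score cells and 5.28% of the others in Em-Ex, a gap within the counting intervals, and in 23.1% and 9.28% in YS-Ex. *Alas2*, an erythroid gene of heme synthesis, had 0 UMIs in the high-score cells of YS-Ex. The summed erythroid ratio was 1.58 (1.36–1.83) and 2.25 (2.11–2.39). The part of red cell RNA in these values was not tested, and the near-identical globin genes can share reads.

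Of 6 macrophage genes measured in Em-Ex 2 were lower by 2-fold and of 2 in YS-Ex 1, where 4.06% and 0.917% of all genes measured were, and *C1qa* had the lowest log2 ratio, −2.45 in Em-Ex. Other genes of the list went the other way: *Adgre1* (F4/80) had ratios of 2.30 (1.43–3.53), below the 200-UMI limit there, and 1.57 (1.105–2.194), and *Fcgr1*, below that limit in both, of 1.57 (0.695–3.10) and 1.87 (0.535–5.33). The basophil list (*Mcpt8*, *Prss34*, *Cd200r3*) had summed ratios of 1.02 (0.949–1.09) and 0.867 (0.815–0.922), and the macrophage list of 10 genes of 0.749 (0.639–0.873) and 0.779 (0.655–0.920). The summed ILC2 and T cell level was 64.1 against 56.2 CPM in Em-Ex, a ratio of 1.14 (0.919–1.41), and 63.2 against 50.5 CPM in YS-Ex, a ratio of 1.25 (1.08–1.44). *Cd3g* made up most of it, at 50.8 against 42.8 CPM and 51.7 against 33.7 CPM. *Il7r* was lower, at 10.7 against 11.9 CPM and 9.23 against 15.3 CPM. *Cd3e*, *Cd4*, *Cd8a* and *Thy1* were not in the table, and *Rora* was at 0 in the high-score cells. Neutrophil progenitor genes summed to 12.7 and 7.55 CPM, eosinophil genes to 16.7 and 19.9 CPM and stromal genes to 0.668 and 0 CPM. The mucosal mast cell list, which holds *Mcpt1* and *Mcpt2* and is thus shaped by the rule, had summed ratios of 0.697 (0.628–0.771) and 0.123 (0.0996–0.150). No gene of the endothelial list was in the table. The median high-score cell held 0 UMIs of each of these lists, apart from the basophil list (5.35 UMIs per 10000 in Em-Ex and 2.64 in YS-Ex) and the erythroid list in YS-Ex (0.774). Values of 0 need not mean that no UMI was read, because each gene was above 0 in at least 30 barcodes per library or in none.

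**Figure D4:**
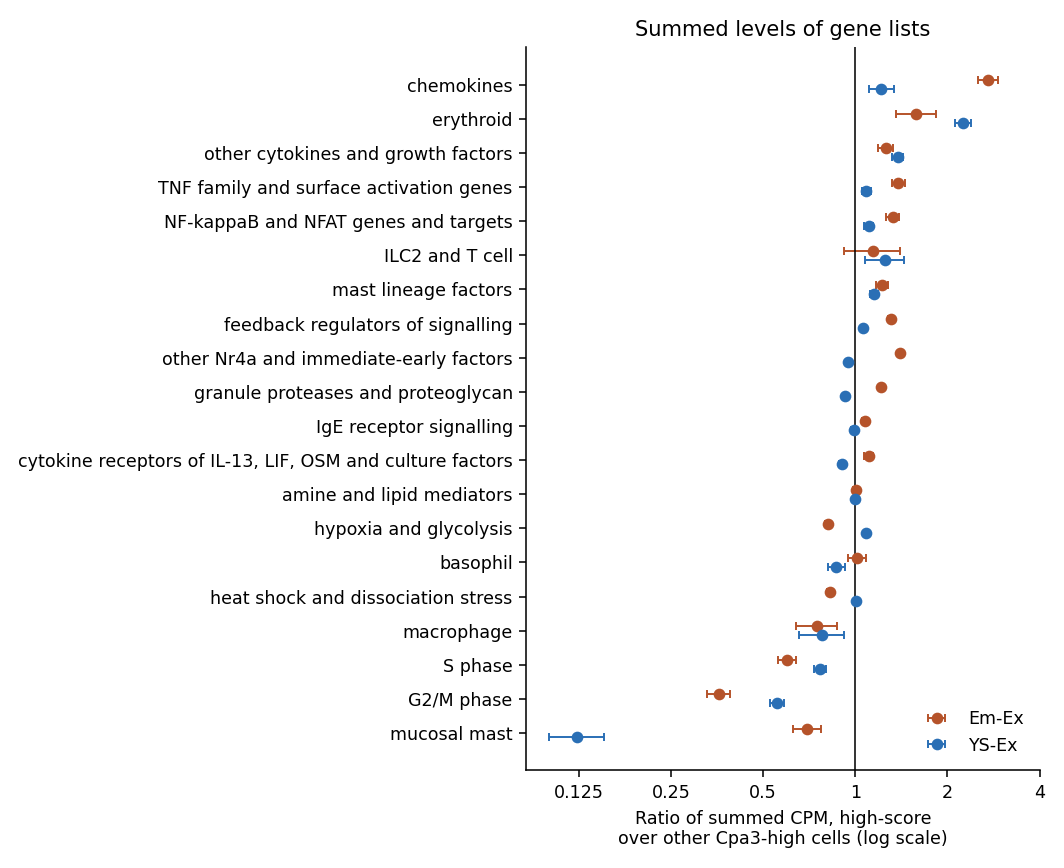
Ratio of summed CPM, high-score over other *Cpa3*-high cells (log axis), with 95% counting intervals for gene lists with over 20 CPM in the high-score cells of both libraries. Chemokine, erythroid and other cytokine lists lie above 1 in both, and the S phase, G2/M and mucosal mast cell lists below 1 in both.

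Outside the lists, the genes with the highest ratio in both libraries, by the smaller of the 2, included genes of signaling and of the cell surface. *Plk3*, a stress-induced kinase, had ratios of 2.64 (2.00–3.43) and 1.89 (1.49–2.36). *Ccrl2*, an atypical chemokine receptor of mast cells, was at 65.5 against 31.6 CPM in Em-Ex and 45.6 against 24.7 CPM in YS-Ex, with ratios of 2.07 (1.66–2.56) and 1.84 (1.54–2.20). *Map3k8*, a kinase upstream of ERK, had ratios of 2.41 (1.67–3.38) and 1.59 (1.32–1.90), and *Cd48*, a surface protein of the SLAM family, of 1.76 (1.31–2.34) and 1.59 (1.35–1.88). *Cpb1* (carboxypeptidase B1) was the most abundant, at 354 CPM (325–386) against 139.9 CPM (135–145) in Em-Ex and 513 CPM (489–537) against 326 CPM (318–333) in YS-Ex. The remaining 15 of the 20 were *Sapcd1*, *G0s2*, *Cnn3*, *Layn*, *Fut8*, *Aldoc*, *Epm2aip1*, *Rcsd1*, *Myom1*, *Coq10a*, *D330045A20Rik*, *Hivep2*, *Spty2d1*, *Neb* and *Cbx8*, with smaller ratios from 1.48 (*Cbx8*) to 1.85 (*Sapcd1*). None of the 20 was beyond 2-fold in both libraries. Among cells with low cell cycle lists, *G0s2*, *Hivep2* and *Neb* were slightly on the lower side in Em-Ex, at log2 ratios of −0.025, −0.094 and −0.11.

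The 10 genes lowest in both libraries were led by *Speer4e* and *Hapln1*. *Speer4e*, of a multigene family whose members can share reads, had 2 UMIs in the high-score cells of each library, against 48.1 CPM (45.4–50.9) in the other Em-Ex cells and 11.7 CPM (10.3–13.2) in the other YS-Ex cells. The ratios were 0.0278 (0.00336–0.101) and 0.0480 (0.00578–0.175). *Hapln1*, which links hyaluronan to proteoglycans, was at 8.02 against 74.2 CPM (70.8–77.6) in Em-Ex, a ratio of 0.108 (0.0557–0.189), and at 1.68 against 11.1 CPM (9.77–12.7) in YS-Ex, a ratio of 0.151 (0.0547–0.333). *Edil3*, a secreted integrin ligand, had ratios of 0.332 (0.176–0.572) and 0.215 (0.106–0.390), *Hmga2*, a chromatin protein of embryonic cells, of 0.420 (0.243–0.678) and 0.210 (0.0898–0.422), and *Loxl2*, a lysyl oxidase, of 0.476 (0.251–0.822) and 0.251 (0.156–0.384). *Dlgap5* and *Cenpa*, which act in mitosis, were at 0.437 and 0.396 in Em-Ex and 0.468 and 0.495 in YS-Ex. *Fbp2*, *Exosc2* and *Igf2r* completed the list. All 10 were lower by 2-fold in both libraries and are among the 19 such genes. Among cells with low cell cycle lists, however, *Dlgap5* was on the higher side in both libraries, at log2 ratios of 0.44 and 1.47, and *Exosc2* in Em-Ex, at 0.28.

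The genes whose levels followed the score most closely across single *Cpa3*-high cells were *Ccr2*, *Pim1*, *Nr4a1*, *Fut8*, *Runx1*, *Cpb1*, *Cish*, *Enah*, *Sepw1* and *Nfkbid*, by the lower of the 2 correlations of log levels over 2077 Em-Ex and 1915 YS-Ex cells. The correlations were weak: r was 0.266 in Em-Ex and 0.267 in YS-Ex for *Ccr2*, 0.264 in Em-Ex and 0.287 in YS-Ex for *Pim1*, and 0.179 in Em-Ex and 0.218 in YS-Ex for *Nfkbid*. They are a description of cells that share a library and whose scores rest on few UMIs. *Ccr2*, the receptor for the chemokine CCL2, was at 309 CPM (282–339) against 115 CPM (110.4–119) in Em-Ex, a ratio of 2.70 (2.44–2.98), and at 439 against 305 CPM in YS-Ex, a ratio of 1.44 (1.36–1.52).

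Divided into 5 bands of the score, from 0 to at least 2 times the limit, several genes changed in steps. *Il6* was at 46.0, 77.4, 96.5, 131 and 153 CPM from the lowest to the highest band in Em-Ex and at 52.7, 80.3, 126, 186 and 209.5 CPM in YS-Ex, higher in each band than in the one before. *Nr4a1* was at 45.2 CPM in Em-Ex cells without score UMIs and 180.2 CPM in the highest band, and at 41.1 and 131 CPM in YS-Ex. In Em-Ex its highest value, 195 CPM, was in the band from 1 to 2 times the limit. *Gadd45b* stayed between 7.59 and 14.0 CPM in the 3 YS-Ex bands below the limit and was at 44.8 and 57.3 CPM in the 2 above it. In the other direction, *Mcpt4* went from 1607 CPM in YS-Ex cells without score UMIs to 322 CPM just below the limit and 296 CPM in the highest band, so that most of its difference lay below the limit. *Hapln1* went from 96.8 to 8.19 CPM in Em-Ex. *Tnfrsf9* followed no such order: cells without score UMIs had 34.2 (Em-Ex) and 33.8 CPM (YS-Ex), those from 1 to 2 times the limit 26.5 and 23.1 CPM, and those above that, 36 and 56 cells, 60.1 and 97.8 CPM. The bands differ in depth, with medians of 9416 to 13063 UMIs in Em-Ex and 10047 to 13384 in YS-Ex.

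**Figure D5:**
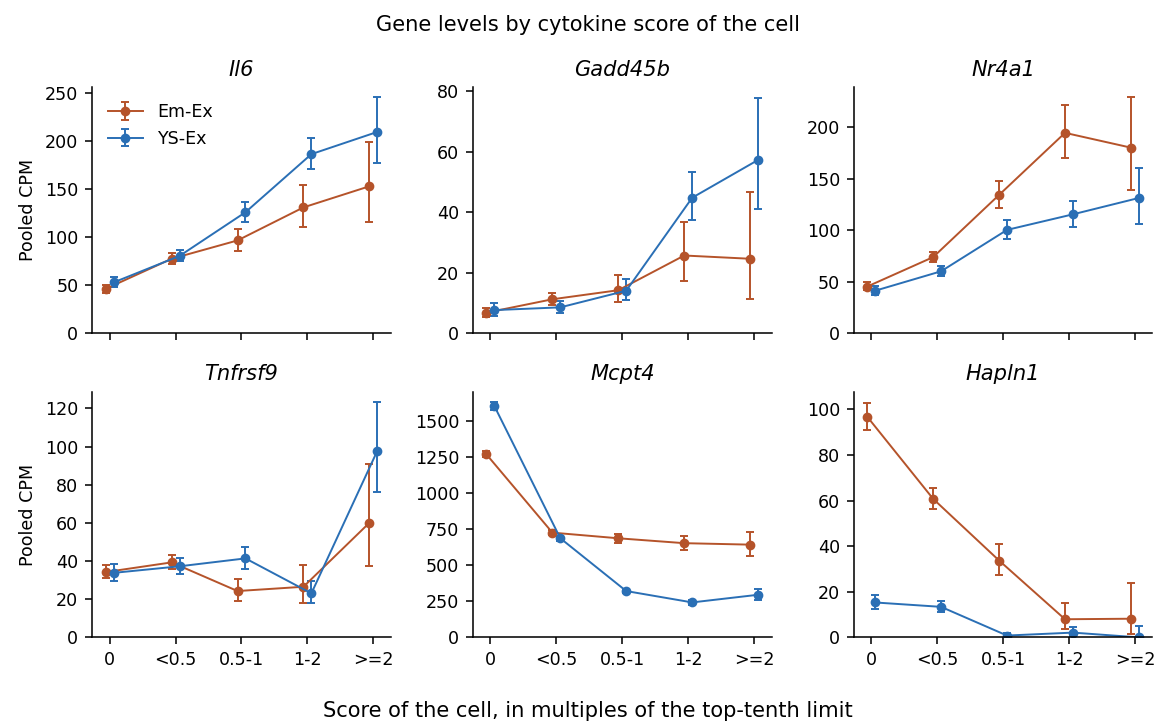
Pooled CPM with exact Poisson 95% intervals of 6 genes in *Cpa3*-high cells grouped by score, in multiples of the limit of the top 10% (4.98 UMIs per 10000). *Il6* and *Nr4a1* climb across the 3 bands below the limit, *Gadd45b* in YS-Ex steps up at the limit, and *Mcpt4* and *Hapln1* decline before it.

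*Il6* was measured in each group of high-score cells led by one score gene. Its pooled level was at 102 CPM in Em-Ex cells led by *Il13*, 168 by *Lif*, 155 by *Osm* and 115 by *Nr4a2*. In YS-Ex the values were 163, 194, 184 and 201 CPM in the same order. The intervals overlap between all 4 groups of Em-Ex and all 4 of YS-Ex. *Nr4a1* was highest where *Nr4a2* led, at 319.9 (Em-Ex) and 129 CPM (YS-Ex), against 106 and 106 CPM in cells led by *Osm*. In Em-Ex its interval was apart from that of the *Osm* group and overlapped those where *Il13* (209 CPM) or *Lif* (168 CPM) led, and in YS-Ex the intervals of all 4 groups overlap. *Gadd45b* was highest in the YS-Ex cells led by *Il13*, at 73.8 CPM, against 24.6 CPM in those led by *Lif*, 25.3 CPM by *Osm* and 40.7 CPM by *Nr4a2*. In Em-Ex, on 5 to 10 UMIs per group, it was at 17.4 CPM where *Il13* led, 38.2 by *Lif*, 17.0 by *Osm* and 39.5 by *Nr4a2*, with intervals that overlap. These groups were formed from the score itself and held 15 to 68 cells.

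The high-score cells of the libraries were also set side by side, with the other *Cpa3*-high cells of the same libraries as the measure of what separated the libraries themselves. Of 2801 genes compared, 30 (1.07%) were at least 2-fold higher in the Em-Ex and 251 (8.96%) in the YS-Ex high-score cells. This count was not made in the other cells, so how many of these genes separated the libraries as a whole was not tested. *Lif* was lower in Em-Ex, with an Em-Ex to YS-Ex ratio of 0.642 (0.539–0.762) in high-score and 0.380 (0.331–0.435) in other cells, while *Osm* had ratios of 1.34 (1.19–1.51) and 0.389 (0.335–0.449). Among genes with at least 100 CPM in 1 pool, the 5 highest in Em-Ex were *Ccl2*, *Mcpt2*, *Tpsab1*, *Ccl3* and *Gzmb*. *Ccl3* had a ratio of 3.73 (3.18–4.38) in the high-score and 1.35 (1.24–1.47) in the other cells, and *Mcpt2* of 8.57 (6.72–11) and 1.58 (1.52–1.64). *Ccl2* was at 100.2 against 3.64 CPM. The 5 lowest were *Hist1h1e*, *Itga4*, *Hbb-bt*, *Eml4* and *Prpf4b*. *Itga4*, the alpha 4 integrin gene, had a ratio of 0.209 (0.152–0.281) in the high-score and 0.160 (0.145–0.177) in the other cells, and *Eml4* of 0.262 (0.186–0.361) and 0.271 (0.248–0.295), so that these gaps were alike in both groups of cells.

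Scores above the limit were rare outside the *Cpa3*-high cells. In Em-Ex, 12 of 871 cells with under 40 *Cpa3* UMIs per 10000 (1.38%, 0.714–2.39%) and 2 of 564 with under 10 (0.355%, 0.0430–1.28%) were above it. In YS-Ex the numbers were 2 of 141 (1.42%, 0.172–5.03%) and 0 of 50, where 3 counts of the total, the limit taken for a count of 0, give 6.0% and the exact interval reaches 7.11%. Of the *Cpa3*-high cells set aside for *Mcpt1* at 20 or more, such a score was found in 2 of 123 (1.63%) for Em-Ex and 0 of 31 for YS-Ex, where the same limits are 9.68% and 11.2%. The *Cpa3*-poor cells of Em-Ex were deeper than the high-score cells, at a median of 19367 UMIs, and the interval of their share lies below that of the *Cpa3*-high cells.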

How the data were processed

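Single-cell RNA-seq was done on sorted cells of 2 explant cultures, with 1 droplet library each. The deposited table holds counts of UMIs for 11691 genes in 6541 barcodes, which the authors made with Cell Ranger 2.0.1 after bcl2fastq 2.19.1.403 on mm10, as listed in the submitters' processing notes. The table was used as deposited. Each gene is above 0 in at least 30 barcodes of a library or listed at 0 there (241 genes in Em-Ex, 725 in YS-Ex), and RNA of lysed cells was not subtracted.

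Barcodes with 1000 to 5000 genes and at most 5% mitochondrial UMIs (13 genes) were kept, and the limits on *Cpa3* and *Mcpt1* and the score were applied as described above. UMIs were pooled by group and library. Intervals of ratios are exact conditional binomial. For shares of cells with a UMI, every cell was thinned once to 3000 UMIs (seed 11), which no cell fell short of. With 1 library per condition, no test was run and a ratio of 2 or more, or 0.5 or less, was the limit for counts of genes with at least 200 UMIs. The members, the 25 gene lists and the limits were chosen with earlier results of these data known. Genes were named if they belonged to the score or rule or to a list. Outside these, the 20 genes with the highest and the 10 with the lowest ratio in both libraries, the 5 highest and 5 lowest between libraries, and the 10 most correlated with the score were named. Alternatives changed the ranking, the limits, the score genes, the depth and the comparison cells. The procedure was tested on simulated data. Python 3.11.15, numpy 2.4.6, pandas 2.3.3, scipy 1.17.1 and matplotlib 3.10.9 were used.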

Additional observations from a re-analysis of the deposited data

Results flagged for a closer look

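For 4 genes, among those with at least 50 UMIs over the *Cpa3*-high cells of each library, the high-score cells of the libraries lay more than 2-fold from the other *Cpa3*-high cells in opposite directions, with counting intervals that exclude 1. They were picked for this from all such genes, and the intervals make no allowance for that search. With at least 50 UMIs in a library, 195 genes were higher and 671 lower by 2-fold in Em-Ex, and 59 and 222 in YS-Ex. The difference between the libraries was not tested. *Bex4* had a ratio of 0.312 (0.0843–0.811) in Em-Ex and 2.51 (1.85–3.39) in YS-Ex. *Ptpn22*, a phosphatase gene of immune receptor signaling, had ratios of 2.36 (1.25–4.16) and 0.410 (0.161–0.875). *Gm14548* had ratios of 3.63 (1.55–7.59) and 0.383 (0.121–0.932). The chemokine gene *Ccl2* had ratios of 5.79 (4.77–6.98) and 0.459 (0.240–0.807), with 150 UMIs in 20 high-score cells of Em-Ex and 13 UMIs in 10 of YS-Ex. *Bex4*, *Ptpn22* and *Gm14548* rested on few UMIs in the high-score cells: 4.0 and 64.0, 14.0 and 7.00, and 9.00 and 5.00, in that order and with Em-Ex first.

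Barcodes outside the limits on genes and mitochondrial UMIs also held scores above the limit of the top 10%. Of those with *Cpa3* at 40 or more and *Mcpt1* under 20 per 10000, those above it numbered 34 of 252 for Em-Ex (13.5%, 9.53–18.3%) and 188 of 877 for YS-Ex (21.4%, 18.8–24.3%). These shares are larger than those within the limits, 6.98% and 13.3%, at lower median depths of 6120 and 6198 UMIs.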

How the results depend on the processing

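No paired analysis was possible because each condition had 1 library and the labels give no replicate numbers. Replication and the sampling of cells limit all values, and in Em-Ex the 145 cells make small counts common. Of the 23 alternatives, those that change only the limit on UMIs or on fold were not applied to ratios of single genes. Of 1287 values of 68 ratios past 2-fold, recomputed under the others, 1277 kept their direction. The 10 that did not were *Ccl7* in Em-Ex without *Il13* in the score (log2 −1.66), *Ccl4* in Em-Ex at 3000 UMIs (−0.37) and in the top 5% (−0.60), and 7 among cells with low cell cycle lists: *G0s2* (−0.025), *Hivep2* (−0.094), *Neb* (−0.11), *Exosc2* (0.28) and *Dlgap5* (0.44) in Em-Ex and *Dlgap5* (1.47) and *Il2ra* (−0.26) in YS-Ex. That setting and the one asking for at least 2 score genes were chosen after seeing the data, and except where the construction of an alternative shows it, the cause was not tested.

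Values are given with Em-Ex first, and the summed G2/M log2 ratio, −1.48 and −0.85 as reported, is called G2/M. With each library ranked on its own, the share was 10.0% and 10.0%, 27 genes were higher and 166 lower in Em-Ex, G2/M was −1.31 in Em-Ex and *Tnfrsf9* 0.36 log2 in YS-Ex. Without a filter on barcodes, G2/M was −0.72 in YS-Ex. With *Cpa3* at 20 or more it was −1.01 there. With *Cpa3* at 80 or more it was −1.0 there, *Tnfrsf9* was 0.34, 8 genes were higher in YS-Ex and 163 lower in Em-Ex. Without *Il13* in the score, G2/M was −1.26 and −0.21 and *Tnfrsf9* 0.48 in YS-Ex. Without *Lif*, 34 and 8 genes were higher and 188 lower in Em-Ex, and G2/M was −1.21 and −0.55. Without *Osm*, 167 genes were lower, *Tnfrsf9* was −0.86 and G2/M −1.14, all in Em-Ex. Without *Nr4a2*, G2/M was −0.76 in YS-Ex. At 3000 UMIs per cell, which leaves fewer genes over 200 UMIs, 4 and 4 genes were higher and 21 and 20 lower, the share was 9.05% and 16.0%, G2/M −0.91 and −0.51 and *Tnfrsf9* −0.59 in YS-Ex. In the top 5%, 86 genes were higher and G2/M was −0.77 in Em-Ex, and 121 genes were lower and *Tnfrsf9* was 0.63 in YS-Ex. In the top 20%, 31 were higher and 108 lower in Em-Ex, with G2/M at −1.11 and −0.56. Against cells with a score of 0, 146 were lower in Em-Ex and 26 higher in YS-Ex, with G2/M at −1.65 and −0.76. With at least 50 UMIs per gene, 195 and 59 were higher and 671 and 222 lower, and with no such limit 504 and 135, and 1417 and 436. At 1.5-fold the counts were 290 and 95, and 766 and 253, and at 3-fold 5 and 1, and 68 and 17. Among cells with low cell cycle lists, which also leaves fewer genes over 200 UMIs, 19 and 8 were higher and 19 and 33 lower, with G2/M at −0.29 and −0.025. With at least 2 score genes, G2/M was −1.34 in Em-Ex.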
